A study of Mus musculus with 39 samples.

Results

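Parathyroid glands of mice lacking Bmal1 in the gland were compared between zeitgeber time 4 (ZT4, 4 h after lights on) and ZT16. The comparison rests on 3 KO libraries of ZT4 and 3 KO libraries of ZT16, which are 6 of the 39 libraries of the series and were chosen by the genotype and time in their titles. It covered 18661 genes with enough counts to test. The question was which genes still differed between these times when the gland's own clock lacked BMAL1, and the same times in WT glands (4 libraries of ZT4, 5 of ZT16) and another pair of KO times (3 libraries of ZT8, 4 of ZT20) are given beside it.

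KO mice were PTHcre;Bmal1 flox/flox. They carried Bmal1 alleles (gene symbol Arntl) with loxP sites on both sides of exon 8, from the strain B6.129S4(Cg)-Arntltm1Weit/J, and a Cre recombinase transgene under the human PTH promoter, from the strain 129;FVB-Tg(PTH-cre)4167Slib/J. WT mice were Bmal1 flox/flox littermates with no Cre, so the floxed alleles were common to both genotypes and the transgene was not. Cre is made where the PTH promoter is active, and vessels, connective tissue and other tissue harvested with the gland keep BMAL1. All animals were male and 11 weeks old. Each library pooled the glands of 2 mice, so n counts pools. An edgeR p-value sets a difference against the spread between pools. In the main fit that spread was estimated over all 39 libraries in 12 groups, WT included.

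The 6 KO libraries held 47254021 to 67311366 counts and detected 18296 to 19202 genes. Pth, the gene of parathyroid hormone, took 9.33 to 13.9% of the counts and the secretory granule gene Chga 10.1 to 12.4%. Other parathyroid genes were read in each library: the calcium-sensing receptor gene Casr at 2723 to 3376 CPM (counts scaled to the library's total with TMM factors) and the parathyroid transcription factor gene Gcm2 at 313 to 459.7 CPM. Of 16 parathyroid identity genes, Sox3 and Cyp24a1 had 0 counts in the 6 libraries. The libraries also held other tissue in unequal amounts. The summed level of 13 thyroid follicle markers was 817 to 33940 CPM at ZT4 and 8.91 to 23960 CPM at ZT16, most of it thyroglobulin (Tg), which was at 7.22 CPM in KO ZT16 replicate 2. The summed level of 18 lymphoid markers was 16.2 to 148 CPM at ZT4 and 20.7 to 161 CPM at ZT16.

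KO ZT16 replicate 1 was titled ZT16, with the clock time of the other ZT16 samples in its title, but its zeitgeber time field gave 20. It was grouped by title. Its level of Nr1d2, a repressor gene of the clock, was 102 CPM, against 59.0 and 70.6 CPM in the other KO ZT16 libraries and 25.6 to 34.0 CPM in the 4 KO ZT20 libraries. Its Per3 level was 21.9 CPM, against 21.8 and 17.5 CPM in the other KO ZT16 libraries and 8.43 to 14.6 CPM at KO ZT20. In both genes it lay nearer to the ZT16 libraries than to those of ZT20, but these genes do not settle its time. Its Nr1d2 level also lay between those of the KO ZT12 libraries (86.7 and 134.7 CPM). Per3 is among the genes called with this library in the ZT16 group. The number of genes called in KO is given below with and without it. Counts within gene lists, and shares of genes whose groups did not overlap, are given only with it. WT ZT16 replicates 4 and 5 have the same conflict of labels, so 2 of the 5 WT ZT16 libraries behind each WT value are of unclear time.

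In the mammalian clock, BMAL1 and its partner CLOCK bind DNA sites called E-boxes and turn on the Period, Cryptochrome and REV-ERB (Nr1d) genes. PER and CRY proteins then repress BMAL1 and CLOCK, while REV-ERB represses, and ROR activates, genes with ROR elements, among them Arntl itself, Npas2 and Cry1. The transcription factors DBP, TEF and HLF, whose genes have E-boxes, act through D-boxes. Cells without BMAL1 lose this loop, yet a tissue in the animal still receives time cues such as body temperature, feeding and circulating hormones. The parathyroid gland senses blood calcium through the calcium-sensing receptor and secretes parathyroid hormone when calcium falls.

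Promoters are printed for genes that the comparison turns on: Per3, the clock gene that differed between the times, Klf11, Acot1 and Acot2, which were higher at ZT4, and Cry1, whose difference between the times was not the same in both genotypes. Each runs from 250 bases before the transcription start to 50 bases from it, 5′ to 3′ on the gene's strand (RefSeq, GRCm38.p6). Capitals mark motif matches.
Per3, chr4:151044616-151044915, minus strand: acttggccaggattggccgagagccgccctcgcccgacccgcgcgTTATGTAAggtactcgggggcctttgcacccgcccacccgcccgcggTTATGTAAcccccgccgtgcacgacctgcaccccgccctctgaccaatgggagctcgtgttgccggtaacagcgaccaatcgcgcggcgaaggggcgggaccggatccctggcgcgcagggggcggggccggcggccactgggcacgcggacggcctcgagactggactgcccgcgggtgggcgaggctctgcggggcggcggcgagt
Klf11, chr12:24651121-24651420, plus strand: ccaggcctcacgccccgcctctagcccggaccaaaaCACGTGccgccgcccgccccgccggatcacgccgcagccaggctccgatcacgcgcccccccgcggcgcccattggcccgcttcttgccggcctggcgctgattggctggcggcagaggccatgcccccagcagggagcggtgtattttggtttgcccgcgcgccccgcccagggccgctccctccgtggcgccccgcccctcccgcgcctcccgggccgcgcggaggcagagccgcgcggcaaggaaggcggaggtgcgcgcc
Acot1, chr12:84009252-84009551, plus strand: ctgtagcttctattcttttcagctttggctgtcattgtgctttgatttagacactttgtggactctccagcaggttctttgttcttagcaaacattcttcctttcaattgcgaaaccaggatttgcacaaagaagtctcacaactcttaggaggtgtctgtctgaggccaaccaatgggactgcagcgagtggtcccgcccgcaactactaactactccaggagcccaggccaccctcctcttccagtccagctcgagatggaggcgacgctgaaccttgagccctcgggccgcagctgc
Acot2, chr12:83987611-83987910, plus strand: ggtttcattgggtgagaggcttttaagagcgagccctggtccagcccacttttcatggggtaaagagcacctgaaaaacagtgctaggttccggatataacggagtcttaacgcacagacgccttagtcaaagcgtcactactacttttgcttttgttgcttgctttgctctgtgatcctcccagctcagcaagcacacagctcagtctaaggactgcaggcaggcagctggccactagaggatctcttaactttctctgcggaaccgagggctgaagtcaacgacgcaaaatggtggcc
Cry1, chr10:85185005-85185304, minus strand: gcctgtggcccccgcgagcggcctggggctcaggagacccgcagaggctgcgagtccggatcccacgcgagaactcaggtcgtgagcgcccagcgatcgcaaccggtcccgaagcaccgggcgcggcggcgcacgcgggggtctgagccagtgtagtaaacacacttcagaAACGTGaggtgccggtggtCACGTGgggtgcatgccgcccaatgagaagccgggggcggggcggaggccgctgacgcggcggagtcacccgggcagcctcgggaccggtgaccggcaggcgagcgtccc

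Motifs were searched on both strands: the E-box CACGTG, the E-prime box CACGTT, the D-box TTATNTAA, the ROR element and the DR1 direct repeat, which nuclear receptors such as PPAR bind. The searched ROR element and DR1 share the letters GGTCA and can overlap. The Per3 promoter held 2 D-box matches, TTATGTAA, which began 205 and 158 bases before the start. Of 32851 promoters of this length, 3.51% held a D-box match. The Klf11 promoter held an E-box 214 bases before its start and that of Paxx held one 45 bases before its own, where 7.15% of promoters held an E-box. The Paxx window (chr2:25461045-25461344, minus strand) lies inside the span of the gene given below. Its start is thus not the outer end of that span, and the same holds for the start of the Per3 window. The Cry1 promoter held an E-box 60 bases before the start and an E-prime box, read as AACGTG, 79 bases before it, and 4.68% of promoters held an E-prime box. In the Acot1 and Acot2 windows none of the 5 motifs was found. Of all promoters, 0.606% held the ROR element and 0.0761% the DR1 as searched, so the absence of such rare matches says little. Of the promoters in the RefSeq table for 17 of the 20 clock genes (22 promoters), 6 held an E-box, 3 an E-prime box, 2 a D-box and 1, that of Arntl, a ROR element. A match is a stretch of letters, and binding there was not measured.

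Few genes differed between ZT4 and ZT16 in KO glands. Acot1, Klf11, Rbm3, Acot2 and Paxx were higher at ZT4 and Per3 was lower, by 1.52-fold (Paxx) to 3.91-fold (Acot1) in the ratio of mean CPM for those that were higher. These 6 of 18661 genes (0.0322%) passed at a Benjamini-Hochberg adjusted p of 0.05 in edgeR (quasi-likelihood), 5 higher (0.0268%) and 1 lower (0.00536%). At an unadjusted p below 0.05 there were 1018 genes (5.46%), 561 higher (3.01%) and 457 lower (2.45%). The libraries of ZT4 all lay above those of ZT16 for 6.38% of genes and all below for 4.87%. DESeq2 called 12 genes, 9 higher and 3 lower, among them all 6. Without KO ZT16 replicate 1, edgeR called 0 genes (1149 at an unadjusted p below 0.05), and the 6 fold changes moved little, as given below.

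**Figure D1:**
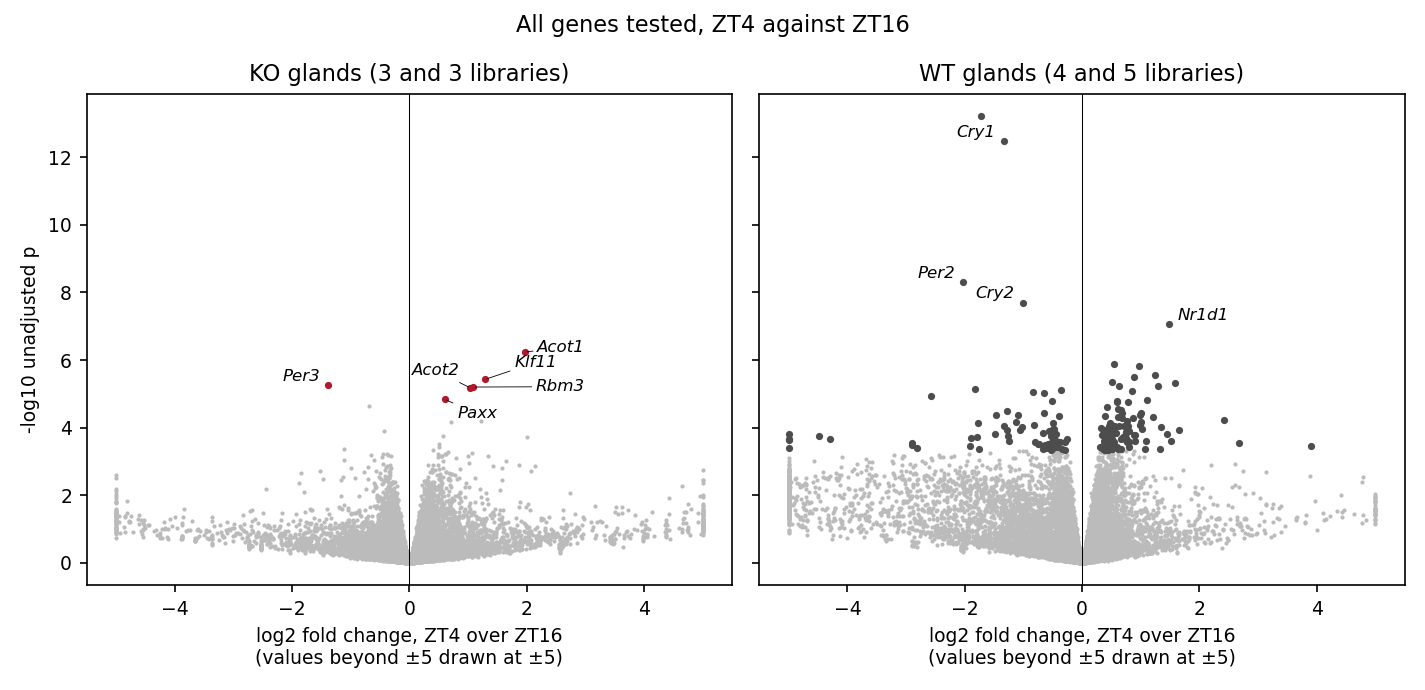
Difference between ZT4 and ZT16 for every gene tested. The x axis is the log2 fold change of ZT4 over ZT16 and the y axis is -log10 of the unadjusted p, for KO glands (left) and WT glands (right). Each point is a gene, and larger red (KO) or dark grey (WT) points passed the adjusted threshold, 6 in KO and 173 in WT.

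Acot1 encodes a cytosolic acyl-CoA thioesterase, which splits fatty acyl-CoA into the free fatty acid and coenzyme A. It lies at chr12:84009502-84017670 (GRCm38.p6). It was read at 33.1, 22.6 and 16.2 CPM in the 3 KO ZT4 libraries, against 5.22, 5.13 and 8.04 CPM in the 3 KO ZT16 libraries. Every ZT4 library lay above every ZT16 library, and the spread was wider at ZT4 (24.0 ± 8.53 CPM at ZT4 and 6.13 ± 1.65 CPM at ZT16, mean ± SD, n = 3 each). The log2 fold change was 1.97 ± 0.31 (SE; edgeR adjusted p = 0.0108). Without KO ZT16 replicate 1 it was 1.88 (edgeR adjusted p = 0.188).

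Acot2, the mitochondrial thioesterase of the same family, lies 15624 bases upstream of Acot1 at chr12:83987861-83993877. It was read at 30.7, 22.9 and 19.1 CPM at ZT4, against 12.0, 11.1 and 12.3 CPM at ZT16. The groups did not overlap, and KO ZT4 replicate 1 was the highest library for both genes. The log2 fold change was 1.04 ± 0.19 (edgeR adjusted p = 0.0247), and 1.07 (0.188) without KO ZT16 replicate 1. The coding sequences of Acot1 and Acot2 are near-identical, so reads could be split between them by the counting and the level of each is uncertain. Their promoter windows shared 155 bases of 339 aligned columns (45.7%).

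Klf11 encodes a Krüppel-like zinc finger transcription factor and lies at chr12:24651371-24662782. Its level was 19.2, 17.4 and 15.3 CPM at ZT4, against 7.25, 6.67 and 7.32 CPM at ZT16. All 3 libraries of ZT4 lay above those of ZT16, whose values were close together. ZT4 over ZT16, the log2 fold change was 1.29 ± 0.23 (edgeR adjusted p = 0.0247), and 1.33 (0.188) without KO ZT16 replicate 1.

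Rbm3 encodes an RNA-binding protein that is made at mild cold. It lies at chrX:8138975-8145880. It was read at 75.2, 68.3 and 111 CPM at ZT4, against 32.4, 40.9 and 46.4 CPM at ZT16. The groups did not overlap, with KO ZT4 replicate 3 the highest. The log2 fold change was 1.09 ± 0.20 (edgeR adjusted p = 0.0247), and 0.98 (0.305) without KO ZT16 replicate 1. Rbm3 overlaps Rbm3os on the other strand, and no source used here says whether the counting used strand. Reads of the pair may thus not have been told apart.

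Paxx encodes a factor that joins broken DNA ends together with the Ku proteins. It lies at chr2:25455120-25462654, a span that overlaps that of Clic3. Whether counted exons overlap was not checked, so reads of the pair may not have been told apart and its counts are uncertain. Its level was 25.7, 22.8 and 30.6 CPM at ZT4, against 18.3, 16.8 and 17.1 CPM at ZT16. This was the smallest of the 6 differences, and its groups did not overlap either. Its log2 fold change was 0.60 ± 0.12 (edgeR adjusted p = 0.0451), and 0.66 (0.188) without KO ZT16 replicate 1.

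Per3, a Period gene of the clock, was the gene that was lower at ZT4. It lies at chr4:150997018-151044707, overlapping Uts2, and its counts are uncertain for the same reason. It was read at 6.00, 7.67 and 9.87 CPM at ZT4, against 21.9, 21.8 and 17.5 CPM at ZT16. Every ZT4 library lay below every ZT16 library, and the ratio of the means was 0.384. The log2 fold change was -1.38 ± 0.25 (edgeR adjusted p = 0.0247), and -1.31 (0.188) without KO ZT16 replicate 1.

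**Figure D2:**
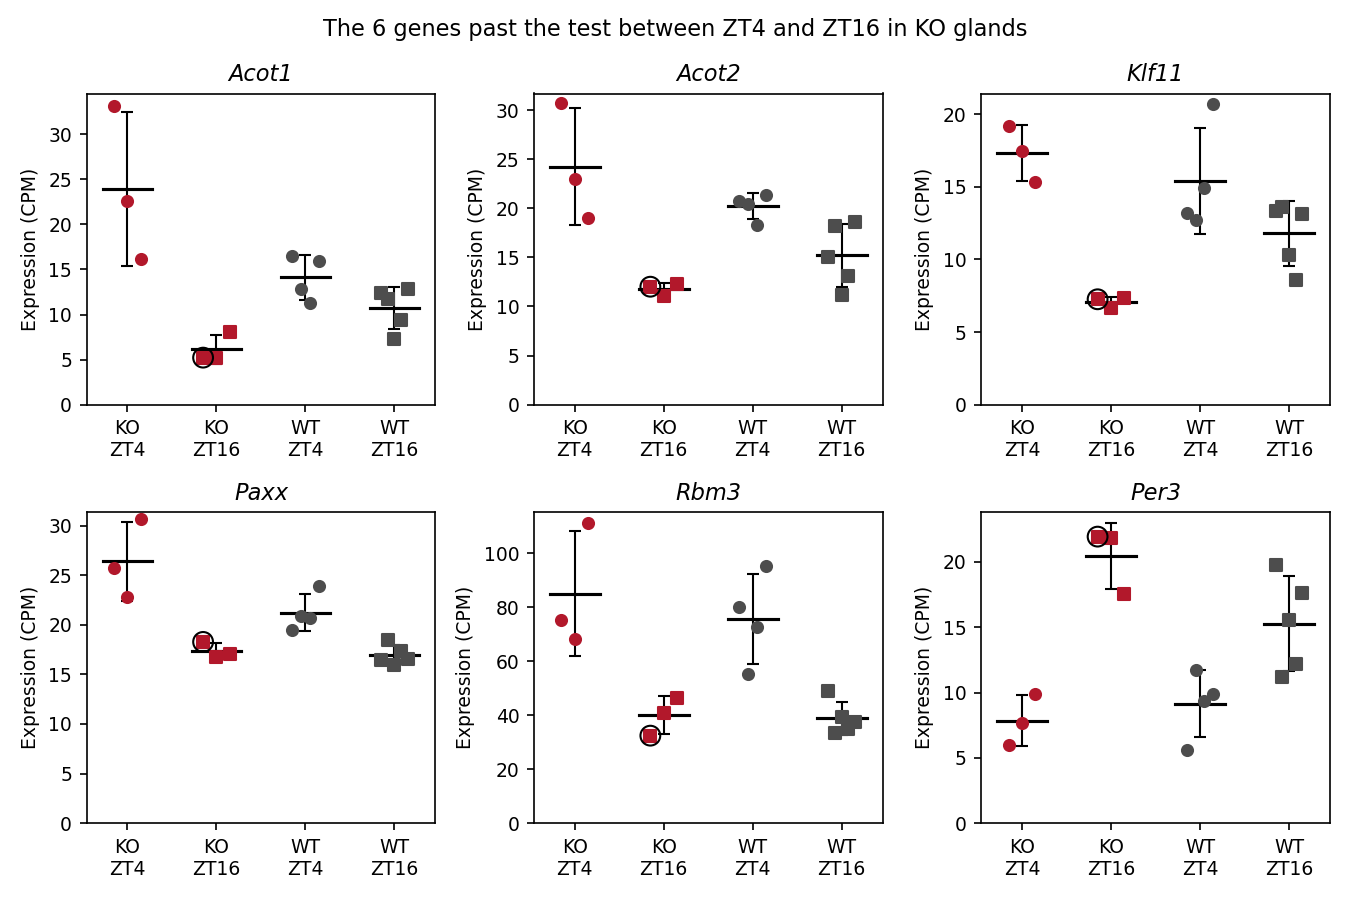
Expression in CPM of the 6 genes that passed between ZT4 and ZT16 in KO glands, in KO ZT4, KO ZT16, WT ZT4 and WT ZT16 libraries. Points are libraries, bars are the mean ± SD, and the circled point is KO ZT16 replicate 1. In KO the groups do not overlap for any of the 6 genes, as for 11.2% of all genes tested.

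The 6 genes were not called in every alternative. Over 16 alternatives Acot1 passed in 8, Klf11 in 6 and each of the other 4 in 5, while the log2 fold changes stayed between 1.68 and 2.21 for Acot1, 1.09 and 1.38 for Klf11, 0.86 and 1.21 for Rbm3, 0.84 and 1.19 for Acot2, 0.49 and 0.68 for Paxx, and -1.57 and -1.21 for Per3. With 4 tissue scores (thyroid, lymphoid, skeletal muscle and fat) as covariates, the log2 fold change of Acot1 was 1.81 (edgeR adjusted p = 0.0694), and 0 genes passed (1396 at an unadjusted p below 0.05). The skeletal muscle score was below that of ZT16 in all 3 ZT4 libraries (-0.36 to -0.15 at ZT4 and 0.21 to 0.29 at ZT16 on the log2 CPM scale; exact two-sided permutation p = 0.1, the smallest this design allows). The summed level of the 12 muscle genes tested was 195 to 402 CPM at ZT4 and 225 to 274 CPM at ZT16, and the muscle genes Acta1 and Ckm were at no more than 0.465 and 0.153 CPM in the 6 libraries. Their part in the 6 differences was not tested beyond that fit. In bulk tissue, fewer cells of a type and less RNA per cell cannot be told apart.

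Over the 6 KO times, Acot1, Klf11, Acot2 and Paxx had their highest mean at ZT4, and these genes and Rbm3 had their lowest at ZT16. Since the genes were picked by that pair of times, their order is a description. Acot1 averaged 10.7 ± 2.57 CPM (ZT0), 24.0 ± 8.53 CPM (ZT4), 15.1 ± 2.84 CPM (ZT8), 16.5 ± 7.57 CPM (ZT12), 6.13 ± 1.65 CPM (ZT16) and 9.84 ± 2.89 CPM (ZT20), with SD over 3, 3, 3, 2, 3 and 4 libraries. The means of ZT8 and ZT12, and those of ZT0 and ZT20, lay within each other's SD. Klf11 averaged 10.9 ± 0.818, 17.3 ± 1.93, 14.0 ± 2.86, 12.7 ± 4.02, 7.08 ± 0.359 and 10.8 ± 4.22 CPM at the same 6 times. Rbm3 had its highest KO mean at ZT8, 117 ± 9.09 CPM, with 84.9 ± 23.1 CPM at ZT4 and 39.9 ± 7.04 CPM at ZT16. Per3 averaged 7.45 ± 0.430 CPM (ZT0), 7.85 ± 1.94 CPM (ZT4), 14.9 ± 4.03 CPM (ZT8), 22.2 ± 0.532 CPM (ZT12), 20.4 ± 2.51 CPM (ZT16) and 11.3 ± 2.92 CPM (ZT20). Its means at ZT12 and ZT16 differed by less than the SD at ZT16, and those at ZT0 and ZT4 by less than the SD of either.

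In WT glands the same times gave more calls, from 9 libraries against 6 in KO, and Rbm3 was the gene they shared with KO. Between WT ZT4 and WT ZT16, 173 of 18661 genes passed (0.927%), 107 higher (0.573%) and 66 lower (0.354%), and 1 of the 6 was among them. That gene was Rbm3, at 55.2 to 95.3 CPM at WT ZT4 and 33.4 to 48.8 CPM at WT ZT16, with a log2 fold change of 0.97 ± 0.16 (edgeR adjusted p = 0.00400). Acot1 was at 11.3 to 16.5 CPM at WT ZT4 and 7.26 to 12.9 CPM at WT ZT16 (log2 fold change 0.40 ± 0.25, edgeR adjusted p = 0.438). Klf11 was at 12.7 to 20.7 and 8.59 to 13.6 CPM (0.38 ± 0.19), Acot2 at 18.3 to 21.3 and 11.2 to 18.6 CPM (0.41 ± 0.16), and Paxx at 19.5 to 23.9 and 16.0 to 18.5 CPM (0.32 ± 0.10). Per3 was at 5.63 to 11.7 CPM at WT ZT4 and 11.2 to 19.8 CPM at WT ZT16 (-0.74 ± 0.21, edgeR adjusted p = 0.0764). The WT groups also held other tissue in unequal amounts. The summed level of the lymphoid markers was 12.8 to 16.1 CPM at WT ZT4. At WT ZT16 it reached 1265 and 1871 CPM in replicates 3 and 4. With the tissue scores as covariates, 41 genes passed in WT. The part of other tissue in the WT calls was not tested beyond that fit.

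The difference between the genotypes was tested itself, as the KO log2 fold change minus the WT log2 fold change. For the 6 genes it was 1.57 ± 0.40 (Acot1, unadjusted p = 4.08e-04), 0.91 ± 0.30 (Klf11, 0.00430), 0.63 ± 0.25 (Acot2, 0.0161), 0.28 ± 0.15 (Paxx, 0.0748), 0.13 ± 0.26 (Rbm3, 0.629) and -0.64 ± 0.32 (Per3, 0.0553). Adjusted over all genes, each of these edgeR p-values was 1.00. The 95% interval for Rbm3 ran from -0.40 to 0.65. After adjustment none of the 6 was shown to differ in size between the genotypes.

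Genes called in WT mostly had the same sign in KO and a smaller fold change. Rbm3 was the 1 gene called in both genotypes, 16.67% of the KO calls and 0.578% of the WT calls. Of the 173 WT calls, 159 (91.91%) had the same sign in KO, beside 61.63% of all genes. Their median absolute log2 fold change was 0.34 in KO and 0.65 in WT, and it was the smaller in KO for 160, beside 54.04% of all genes. These genes were chosen by their size in WT, with 9 libraries against 6 in KO, so a smaller value in KO is a description. The WT count itself moved between 10 and 567 when single WT libraries were left out, and was 46 without the 3 libraries of unclear time, WT ZT16 replicates 4 and 5 and KO ZT16 replicate 1.

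The targeted gene was read in every library. Arntl had 21.0, 18.9 and 18.9 CPM at KO ZT4, against 7.93, 12.3 and 12.0 CPM at KO ZT16. The KO groups did not overlap, and KO ZT16 replicate 1 was the lowest. Its log2 fold change was 0.87 ± 0.31 (edgeR adjusted p = 0.702). In WT it was at 26.8 to 34.6 CPM at ZT4 and 7.94 to 32.7 CPM at ZT16 (0.44 ± 0.25). Counts were given for the whole gene, so RNA that lacks exon 8 is counted too and these levels do not check the genotype labels.

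Among 12 clock genes listed as having E-boxes, 1 passed in KO, Per3, where 0.0322% of all genes did. The list's name is no result of the motif search, which found no E-box in the Per3 window. Of the 12, 10 had a negative log2 fold change, with a median of -0.46 beside 0.003 over all genes tested. At an unadjusted p below 0.05, 6 were lower and 1 higher, where 2.45% and 3.01% of all genes were. The median was -0.30 without KO ZT16 replicate 3 and -0.57 without KO ZT16 replicate 2. Per2, a Period repressor gene, had 29.6, 43.5 and 44.6 CPM at ZT4, against 67.6, 83.3 and 84.0 CPM at ZT16. Its groups did not overlap, with a log2 fold change of -0.996 ± 0.286 (edgeR adjusted p = 0.552). Nr1d2, a REV-ERB gene, had 46.7, 26.7 and 34.4 CPM at ZT4, against 102, 59.0 and 70.6 CPM at ZT16, without overlap (-1.11 ± 0.30, edgeR adjusted p = 0.483). Without KO ZT16 replicate 1 the Nr1d2 value was -0.83 (0.739).

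Nr1d1, the other REV-ERB gene, went the other way from Nr1d2. It had 9.88, 5.65 and 11.3 CPM at ZT4, against 3.78, 4.41 and 6.77 CPM at ZT16, a log2 fold change of 0.85 ± 0.26 (edgeR adjusted p = 0.585). KO ZT4 replicate 2 lay below the highest ZT16 library. The D-box factor genes had log2 fold changes of -0.46 ± 0.28 (Dbp), -0.34 ± 0.16 (Tef) and -1.12 ± 0.45 (Hlf). Hlf was read at 0.80 to 1.40 CPM at ZT4 and 1.76 to 2.96 CPM at ZT16, and Tef at 126 to 132 CPM at ZT4 and 151 to 181 CPM at ZT16. Per1 (-0.50 ± 0.32), Cry2 (-0.35 ± 0.16) and the repressor genes Bhlhe40 (-0.46 ± 0.27), Bhlhe41 (0.11 ± 0.23) and Ciart (-0.06 ± 0.64) did not pass.

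Of 8 clock genes listed as targets of ROR elements, 0 passed in KO by edgeR or DESeq2. At an unadjusted p below 0.05, 1 was higher, Arntl, where 3.01% of all genes were. The list's median log2 fold change was 0.07, against -0.02 without KO ZT4 replicate 2 and 0.19 without KO ZT4 replicate 1. Clock, the partner gene of Bmal1, had 130.5, 126 and 134 CPM at ZT4, against 117, 140 and 136 CPM at ZT16, a log2 fold change of -0.01 ± 0.11. Npas2, a relative of Clock, had 11.2, 13.6 and 12.8 CPM at ZT4, against 4.27, 10.6 and 12.8 CPM at ZT16 (0.44 ± 0.43), with KO ZT16 replicate 1 below the rest. Rora, which encodes a ROR activator, had a log2 fold change of 0.03 ± 0.14, with 13.6 to 15.9 CPM at ZT4 and 13.9 to 15.4 CPM at ZT16. Nfil3 (0.28 ± 0.31) and Arntl2 (0.09 ± 0.27) did not pass either.

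**Figure D3:**
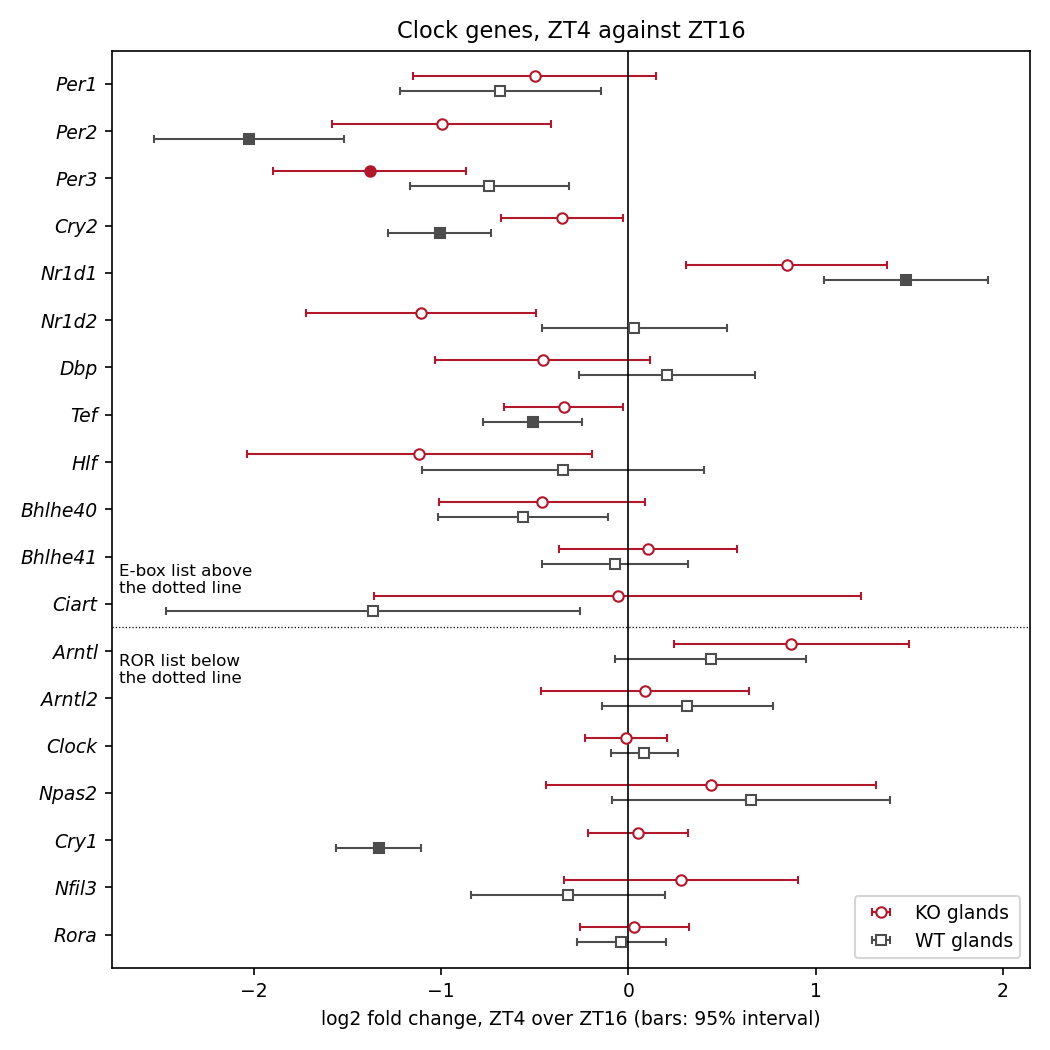
Log2 fold change of ZT4 over ZT16 for 19 clock genes, in KO glands (circles) and WT glands (squares). Bars are 95% intervals from edgeR, and filled symbols passed the test over all genes. Per3 passed in KO, and the KO interval of Cry1, which lies around 0, does not meet that of WT.

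For 2 genes (0.0107% of those tested), Cry1 among them, the difference between ZT4 and ZT16 itself differed between KO and WT. Cry1 encodes a cryptochrome, the repressor of BMAL1 and CLOCK. It was read at 69.7, 86.2 and 69.95 CPM at KO ZT4 and at 64.8, 73.4 and 79.9 CPM at KO ZT16. The KO groups overlapped, with a log2 fold change of 0.05 ± 0.13 and a 95% interval from -0.22 to 0.32. In WT it was at 16.5 to 21.2 CPM at ZT4 and 43.2 to 56.8 CPM at ZT16 (-1.33 ± 0.11, edgeR adjusted p = 3.06e-09). KO minus WT, the difference was 1.38 ± 0.17 (edgeR adjusted p = 6.44e-05). Cry1 passed this test in each of 23 alternatives, among them the fit without KO ZT16 replicate 1. All 6 KO libraries lay above the WT ZT16 libraries in Cry1.

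For Per2, Cry2, Nr1d2 and Nr1d1 the test of the difference did not pass over all genes. KO minus WT, it was 1.03 ± 0.37 for Per2 (unadjusted p = 0.00935), 0.65 ± 0.21 for Cry2 (0.00371), -1.14 ± 0.38 for Nr1d2 (0.00585) and -0.64 ± 0.34 for Nr1d1 (0.0682), each with an edgeR adjusted p of 1.00. In WT, Per2 was lower at ZT4 (log2 fold change -2.02 ± 0.25), as was Cry2 (-1.01 ± 0.14), and Nr1d1 was higher (1.48 ± 0.21).

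**Figure D4:**
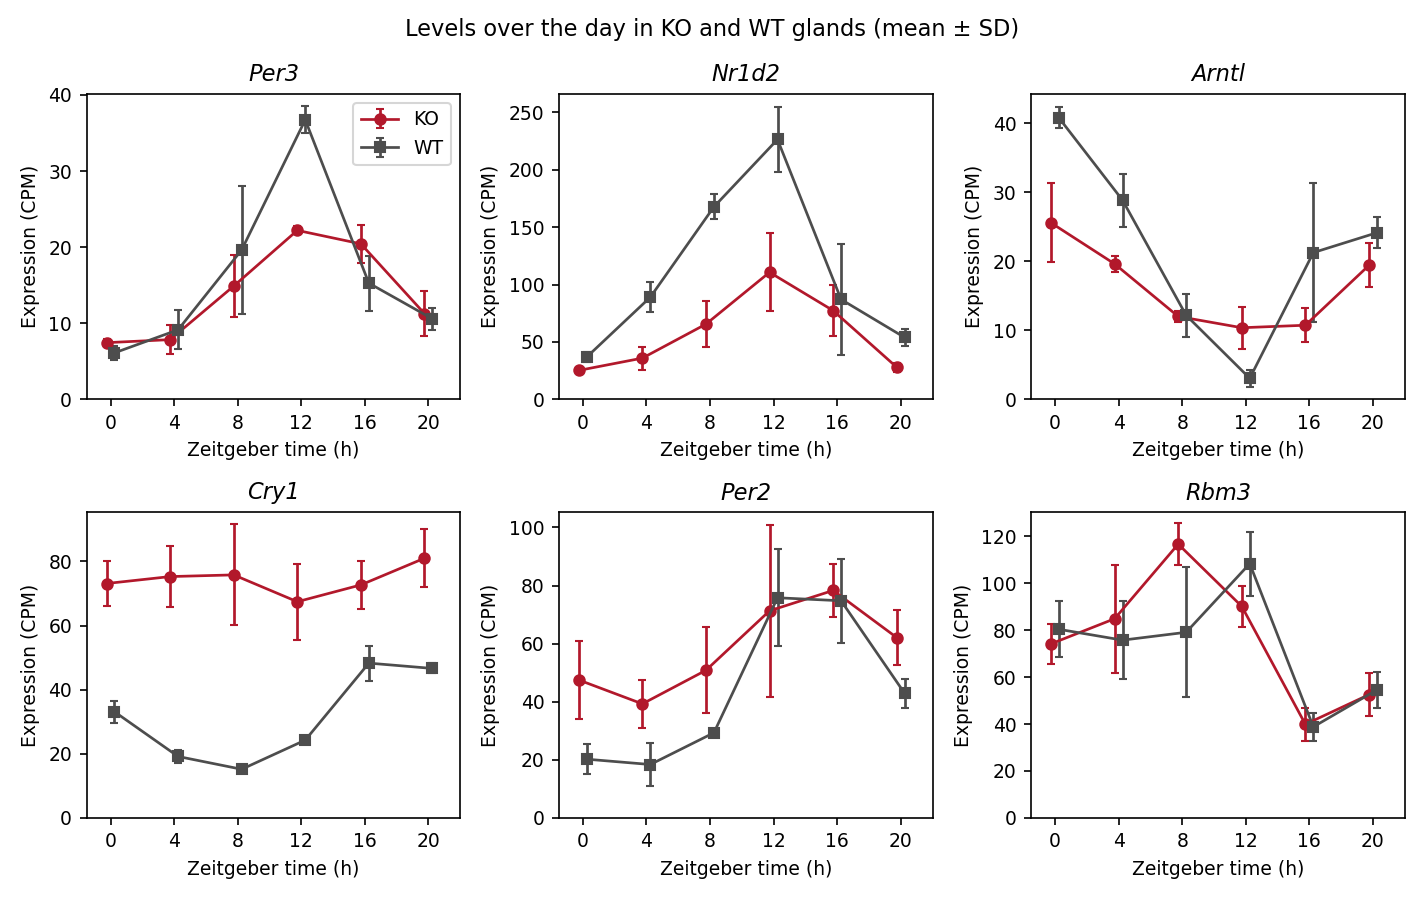
Mean ± SD expression in CPM over zeitgeber time in hours for Per3, Nr1d2, Arntl, Cry1, Per2 and Rbm3, in KO glands (circles, n = 2 to 4 a time) and WT glands (squares, n = 2 to 5). In KO, the Cry1 means stay between 67.4 and 81.0 CPM over the 6 times, and Per3 has its highest means at ZT12 and ZT16.

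Genes that answer to temperature gave a call in 1 list outside the clock. Of 4 cold-inducible genes, 1 passed, Rbm3, where 0.0322% of all genes did, and the median log2 fold change was 0.60. At an unadjusted p below 0.05, 2 of the 4 were higher and 1 lower, where 3.01% and 2.45% of all genes were. Cirbp, the other classical cold-inducible RNA-binding protein gene, had 98.0, 93.2 and 90.2 CPM at ZT4, against 41.6, 37.6 and 41.1 CPM at ZT16. The groups lay far apart, with a log2 fold change of 1.23 ± 0.26 (edgeR adjusted p = 0.138). Cirbp passed by DESeq2 (0.00270) and in the fit of the 6 KO libraries alone (0.00570), and the WT value was also 1.23 (edgeR adjusted p = 0.00637). Srsf5 (0.10) and Sfpq (-0.35) did not pass, and Sfpq was the gene that was lower at an unadjusted p below 0.05. Cirbp was named after its values were seen, as were the genes below other than Pth and the gene of smallest p in each list.

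All 15 heat shock genes had a negative log2 fold change, with a median of -0.30 and 0 past the test by edgeR or DESeq2. At an unadjusted p below 0.05, 5 of the 15 were lower, where 2.45% of all genes were. The ZT4 libraries all lay below those of ZT16 for 8 of the 15, where 4.87% of all genes did so. Hsph1, a chaperone gene, had 44.8, 45.3 and 47.4 CPM at ZT4, against 71.6, 96.6 and 94.2 CPM at ZT16, a log2 fold change of -0.93 ± 0.29 (edgeR adjusted p = 0.585). Hsp90ab1, a cytosolic HSP90 gene, had 888, 899 and 713 CPM at ZT4, against 1117, 1074 and 1224 CPM at ZT16 (-0.45 ± 0.16). The HSP90 co-chaperone gene Chordc1 (-0.60 ± 0.24), the heat shock factor gene Hsf1 (-0.28 ± 0.10) and Hspb1 (-0.30 ± 0.14) also had groups without overlap. In WT the list's median was -0.26, with 0 called.

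Of 15 genes of fatty acid oxidation, 0 passed by edgeR or DESeq2, with a median of 0.06 (0.03 to 0.12 with 1 library left out). At an unadjusted p below 0.05, 3 were higher at ZT4, where 3.01% of all genes were. Angptl4, a secreted inhibitor of lipoprotein lipase, had 22.4, 26.2 and 25.4 CPM at ZT4, against 6.43, 7.76 and 9.56 CPM at ZT16 (log2 fold change 1.64 ± 0.45, edgeR adjusted p = 0.491). Pdk4, a kinase gene that restrains pyruvate oxidation, had 41.5, 67.6 and 31.0 CPM at ZT4, against 14.2, 19.2 and 13.3 CPM at ZT16 (1.59 ± 0.50, edgeR adjusted p = 0.588). Cpt1a, for the carnitine step of mitochondrial import, had 158.5, 183.0 and 138 CPM at ZT4, against 102, 98.3 and 137 CPM at ZT16 (0.51 ± 0.16). The groups did not overlap in these genes or in Acadvl, 4 of the 15, where the ZT4 libraries all lay above those of ZT16 for 6.38% of all genes. Acadm and Hadha, enzyme genes of the oxidation cycle itself, stood near 0, with log2 fold changes of 0.06 ± 0.10 and 0.01 ± 0.10. This does not cover the other enzyme genes of the cycle.

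Slc25a20 and Eci2, which are in none of the lists, were picked by their values from the 11.2% of all genes whose groups did not overlap. Slc25a20, the mitochondrial carnitine-acylcarnitine carrier gene, had 59.7, 53.4 and 50.7 CPM at ZT4, against 31.1, 31.6 and 37.2 CPM at ZT16 (log2 fold change 0.71 ± 0.16, edgeR adjusted p = 0.138), and passed by DESeq2. Eci2, an enoyl-CoA isomerase gene, had 82.2, 77.9 and 73.1 CPM at ZT4, against 57.2, 60.5 and 58.2 CPM at ZT16 (0.41 ± 0.10, edgeR adjusted p = 0.425). They are no independent sign of a change.

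Of 20 lipid synthesis genes, 17 had a negative log2 fold change and 0 passed by edgeR or DESeq2. Their median was -0.18 (-0.10 without KO ZT4 replicate 2). At an unadjusted p below 0.05, 4 were lower, where 2.45% of all genes were. The ZT4 libraries all lay below those of ZT16 for 7 of the 20, and for 4.87% of all genes. In WT the list's median was 0.02.

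Of 15 genes that glucocorticoids induce, 0 passed by edgeR or DESeq2 in KO (median 0.08, and -0.07 without KO ZT4 replicate 1). At an unadjusted p below 0.05, 2 were higher and 1 lower, where 3.01% and 2.45% of all genes were. Angptl4 and Pdk4, given above, are in this list too. Fkbp5, a co-chaperone gene of the glucocorticoid receptor, had 23.6, 33.5 and 17.4 CPM at ZT4, against 75.5, 39.0 and 52.0 CPM at ZT16 (-1.16 ± 0.36, edgeR adjusted p = 0.585), without overlap. In WT its log2 fold change was -1.47 ± 0.31 (edgeR adjusted p = 0.0236), and Pdk4 stood at -0.27 ± 0.40. Zbtb16 was at 5.69 to 5.98 CPM at ZT4 and 8.85 to 12.4 CPM at ZT16 (-0.81 ± 0.55).

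Genes of the gland's own function did not pass between the times. Pth had 99250, 107900 and 139200 CPM at ZT4, against 118800, 107300 and 93240 CPM at ZT16, and the groups overlapped (log2 fold change 0.12 ± 0.31, edgeR adjusted p = 1.00). Of 14 parathyroid identity genes tested, 0 passed by edgeR or DESeq2, and 0 were at an unadjusted p below 0.05 (median -0.10, and -0.19 to -0.04 with 1 library left out). Of the 14, 12 had a negative log2 fold change. The ZT4 libraries all lay below those of ZT16 for 3 (Kl, Gcm2 and Cyp27b1), where 4.87% of all genes did so. Kl, the FGF23 co-receptor klotho, had 2509, 2395 and 2284 CPM at ZT4, against 3044, 2642 and 3309 CPM at ZT16 (-0.32 ± 0.16), with no overlap. Gcm2 had 381.9, 313.1 and 351.6 CPM at ZT4, against 413.5, 459.7 and 393.9 CPM at ZT16 (-0.28 ± 0.17). Casr (-0.05 ± 0.16), Gata3 (-0.01 ± 0.24) and Chga (-0.02 ± 0.20) had overlapping groups. Of 18 granin and secretion genes 0 passed by either tool, and Pam, which amidates peptide hormones, had the smallest p (0.28 ± 0.12).

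In the remaining lists the members stood near 0 or varied between libraries, and 0 passed by edgeR or DESeq2. Beside the unadjusted counts that follow, 3.01% of all genes were higher and 2.45% lower at an unadjusted p below 0.05. ER folding genes were negative in 20 of 21 (median -0.20, 2 lower at an unadjusted p below 0.05; the median was -0.34 without KO ZT4 replicate 1 and -0.09 without KO ZT16 replicate 3), with Hsp90b1 at 812, 765 and 628 CPM at ZT4, against 878, 893 and 1081 CPM at ZT16. All 30 ribosomal protein genes (median 0.14) and 27 of 30 oxidative phosphorylation genes (median 0.09) had a positive log2 fold change, with 1 and 0 at an unadjusted p below 0.05. Leaving out KO ZT4 replicate 1 gave the lowest medians, 0.08 and 0.05, and leaving out KO ZT16 replicate 1 the highest, 0.23 and 0.13. Proliferation genes were negative in 26 of 30 (median -0.19), with 0 at an unadjusted p below 0.05, and the median was 0.31 without KO ZT16 replicate 1. Of 15 immediate early genes 11 were positive (median 0.17, 1 lower at an unadjusted p below 0.05), among them Fos (1.05 ± 0.58) and Egr1 (0.84 ± 0.70). That median ran from 0.13 to 0.48 over the fits that left out 1 of the 6 libraries. In WT the median of these genes was -0.51. Interferon response genes were negative in 13 of 16 (median -0.32, 1 lower at an unadjusted p below 0.05), and the median was -0.10 without KO ZT16 replicate 1. The 18 lymphoid markers had a median of -0.59, and 0.44 without that library, and their part in the interferon values was not tested.

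Of 20 extracellular matrix genes 17 were positive (median 0.39), and 0 passed by edgeR. At an unadjusted p below 0.05, 3 of the 20 were higher, where 3.01% of all genes were. The list's median was 0.15 without KO ZT4 replicate 3. Col5a3, a fibrillar collagen gene, had 11.7, 4.80 and 14.3 CPM at ZT4, against 3.30, 2.95 and 1.40 CPM at ZT16, without overlap (log2 fold change 2.00 ± 0.47, edgeR adjusted p = 0.297), and it passed by DESeq2. Its WT value was 1.65 ± 0.37 (edgeR adjusted p = 0.0324). Fibroblast markers had a median of -0.06, against -0.60 without KO ZT4 replicate 3 and 0.34 without KO ZT16 replicate 2, with a summed level of 968 to 1897 CPM at ZT4 and 985 to 1742 CPM at ZT16.

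**Figure D5:**
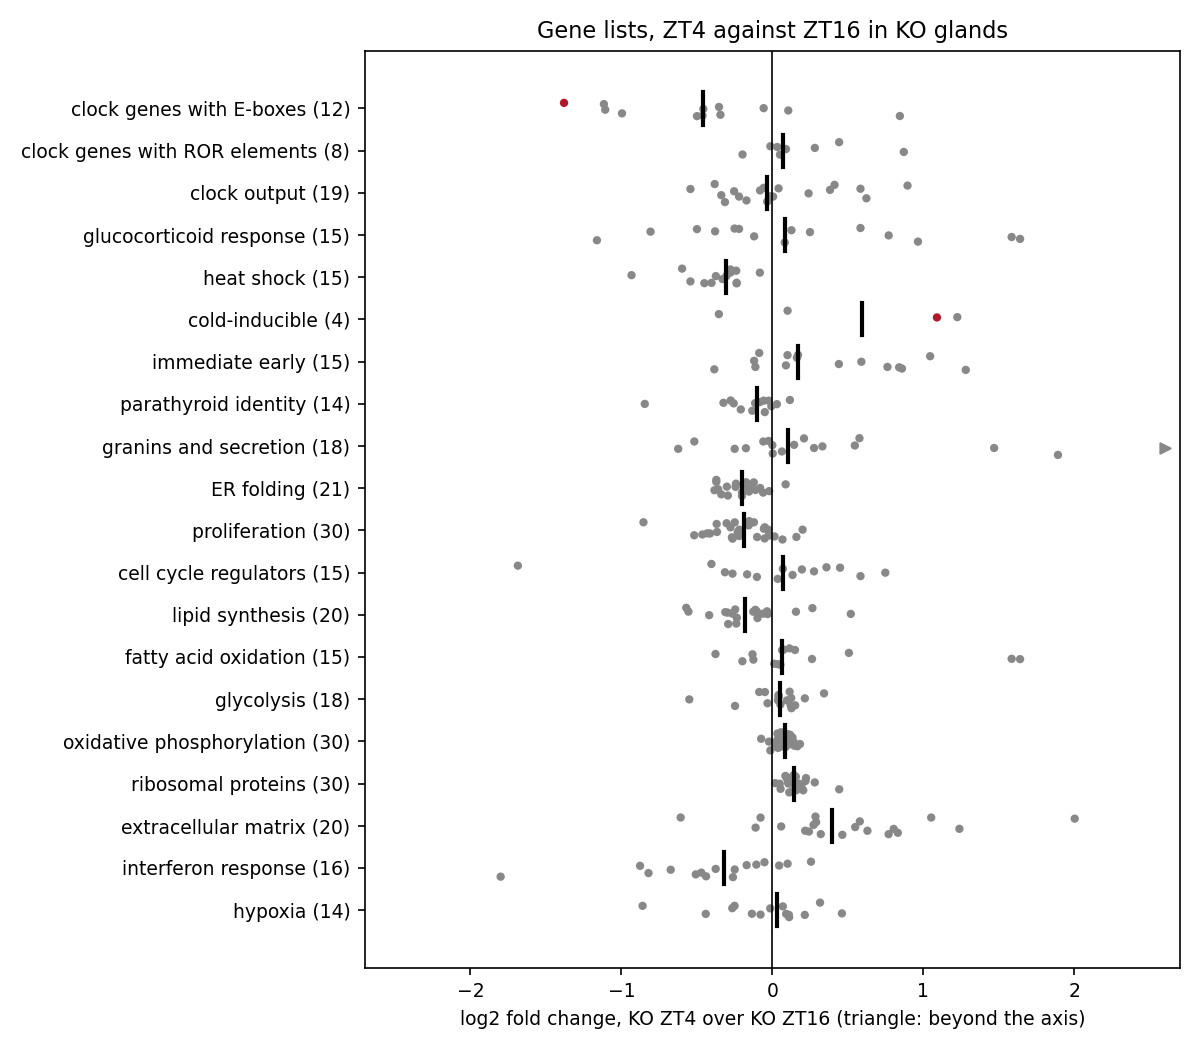
Log2 fold change of KO ZT4 over KO ZT16 by gene list, with the number of genes tested in brackets. Points are genes, black bars are list medians and red points passed the test (Per3 and Rbm3). The triangle is Pcsk2, at 5.86, and the heat shock points all lie left of 0 and the ribosomal protein points all right of it.

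The pair of KO times 4 h later gave a similarly short list. Between ZT8 and ZT20, 2 of 18661 genes passed (0.0107%), Nr1d1 (log2 fold change 1.71 ± 0.24, edgeR adjusted p = 0.00113) and Rbm3 (1.15 ± 0.18, edgeR adjusted p = 0.00568), both higher at ZT8. These libraries are other pools than those of ZT4 and ZT16. Rbm3 was read at 124.5, 107 and 119 CPM at ZT8 and at 44.6 to 63.8 CPM at ZT20, without overlap. For the other genes called between ZT4 and ZT16, the values were 0.61 ± 0.28 (Acot1), 0.37 ± 0.21 (Klf11), 0.30 ± 0.18 (Acot2), 0.28 ± 0.11 (Paxx) and 0.40 ± 0.23 (Per3). None of these 5 passed (edgeR adjusted p = 0.900 each). Nr1d2 was at -1.11 between ZT4 and ZT16 and at 1.23 ± 0.28 between ZT8 and ZT20 (edgeR adjusted p = 0.427).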

How the data were processed

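Total RNA of pooled parathyroid glands was sequenced from stranded, ribosome-depleted libraries, per the labels' protocols. The deposited values are raw gene counts, which the authors made with STAR 2.7.8a and featureCounts 2.0.1 on mm10, per the submitters' processing notes, which also name DESeq2 1.30.1. The sources used here give neither the annotation nor the strand setting. Of the deposited counts between 1 and 10, 89.6% were even.

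Counts of all 39 libraries (38111766 to 68938704 per library) were fitted in edgeR 4.0.16 (R 4.3.3, limma 3.58.1) as 12 group means, with TMM factors, filterByExpr, robust quasi-likelihood tests and Benjamini-Hochberg adjustment at 0.05. An SE is the size of the log2 fold change over the square root of F. DESeq2 1.42.0, other scalings and filters, fewer libraries, a replicate block, tissue scores and leaving out each library were alternatives. Named genes were the clock lists, Pth, called genes and the gene of smallest p in each list. The members, lists and tests were chosen with earlier results of these data known. A copy of the edgeR fit was run on simulated counts for ZT4 against ZT16 in KO. The other tests were not tried in this way. Of 468 list entries, 467 matched and 459 were tested. Results for some genes are not reported here.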

Additional observations from a re-analysis of the deposited data

Results flagged for a closer look

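The difference between ZT4 and ZT16 was itself different between KO and WT glands for Cry1. KO minus WT, the log2 difference was 1.38 (edgeR adjusted p = 6.44e-05). The KO groups overlapped, while all 4 WT ZT4 libraries lay below all 5 WT ZT16 libraries.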

How the results depend on the processing

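The direction of each named gene's called difference held in every alternative run, but the number of calls did not. Against 6 calls in KO (5 higher, 1 lower), DESeq2 gave 12 (9 higher, 3 lower), the fit of the 6 KO libraries alone gave 1 (1 higher, 0 lower), which was Cirbp and none of the 6, and DESeq2 size factors, no filter and a filter at 1 CPM each gave 7, with 2 lower. By edgeR 0 genes passed in the fit of the 18 KO libraries (1037 at an unadjusted p below 0.05), without the 3 libraries of unclear time (1141), with these grouped as ZT20 (1042) and with tissue scores (1396). Leaving out 1 KO library gave 0 to 4 calls, 0 to 3 higher and 0 to 1 lower. None passed without KO ZT4 replicate 1, KO ZT16 replicate 1 or KO ZT16 replicate 2 (799, 1149 and 713 at an unadjusted p below 0.05), and 1 without KO ZT16 replicate 3. The highest adjusted p over the alternatives was 0.504 for Acot1 and 0.696 for Rbm3. In WT (173 calls) DESeq2 gave 1091, the fit without the 3 libraries 46, the regrouped fit 14 and the tissue scores 41, and leaving out 1 library gave 10 to 567. The KO minus WT difference (2 calls) gave 17 by DESeq2 and 2 to 3 with 1 library left out. ZT8 against ZT20 (2 calls) gave 16 by DESeq2, 1 with tissue scores and 0 to 3 with 1 library left out. For the loss or gain of calls the cause was not tested.

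Replicate numbers are not stated to mark a shared animal or day, and the correlations of same-numbered deviations were 0.0865, 0.0239 and -0.0109. With the replicate number as a block, 3 genes passed in KO (2 higher, 1 lower): Acot1 and Klf11, and Vars as the lower gene, while Per3, Rbm3, Acot2 and Paxx did not pass. Pooling and 3 libraries a group limit which small differences could pass.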

Other observations

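Further genes outside the lists, named after their values were seen, had KO groups without overlap, as did 11.2% of all genes tested. Vars, which encodes valyl-tRNA synthetase, had 151, 143 and 128 CPM at ZT4, against 217, 239 and 219 CPM at ZT16 (log2 fold change -0.68 ± 0.14, edgeR adjusted p = 0.0614). It passed by DESeq2 and with the replicate block. Fgf20, a fibroblast growth factor gene, had a log2 fold change of -1.12 (edgeR adjusted p = 0.425), and Hnrnpdl, which encodes an RNA-binding protein, one of 0.57 (edgeR adjusted p = 0.297). Both passed in 0 of 16 alternatives.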
